A study of Felis catus with 77 samples.

Results

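The skeletal muscle restricted genes are the 100 genes of 19587 Ensembl identifiers whose RNA stood furthest above the other tissues in normal skeletal muscle (SM) taken near feline fibrosarcoma (FSA). They were chosen on the counts described here. The counts of every library were divided by a size factor (the median ratio of its genes to their geometric means, over the 6527 genes with a count in all libraries), and the median of these normalized counts was taken per tissue. Genes with an SM median of at least 50 were kept, which left 8319. They were ranked by (SM median + 1) over (the largest median of tumor, adipose and connective tissue + 1), and the first 100 are the members, called by that rank below. Since the SM values and the other 3 tissue medians chose the members, every comparison with SM is a description and carries no test.

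Skeletal muscle is made of long multinucleated fibres filled with sarcomeres, repeating units of actin, myosin and their regulatory and scaffold proteins that shorten when calcium is released from the sarcoplasmic reticulum. A few contractile proteins and the enzymes that supply them with energy make up much of the RNA of a fibre. Fibres also differ among muscles, in slow and fast forms of the contractile proteins, and subcutaneous tumors of the trunk and limbs lie close to such muscle.

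The study collected tumor (T) and matched normal tissue (NT) from 30 cats with FSA, a malignant tumor of mesenchymal origin, from formalin-fixed and paraffin-embedded (FFPE) blocks. A pathologist chose the areas, and tumor, adipose tissue (AT), connective tissue (CT) and SM were cut out by laser-capture microdissection (LCM), 2 caps per tissue and case. The RNA gave 77 libraries, 30 of T, 16 of AT, 11 of CT and 20 of SM, and libraries with the same number came from the same cat (AT 6 and SM 6 are both of cat 6). The labels name no treatment, agent, allele or age. Most patients were European short hair cats, and tumors related to an injection site were not separated from others. The NT came from cats with FSA, so no group is tissue of a healthy animal. For AT 5 the title says adipose and the tissue label tumor, and it was used as AT. In bulk tissue of this kind, fewer muscle fibres and less RNA per fibre cannot be told apart.

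The libraries held 847003 to 19099337 counts, and the median total was highest in SM and lowest in AT. A gene with 0 counts in a library can still lie at up to 3 counts, which is 0.912 normalized counts in the library with the largest size factor (T 9) and 31.3 in that with the smallest (SM 7). In the 18 libraries of cats 11 to 17 more genes had counts than in most of the rest, and AT 6 carried a muscle profile, so results that rest on them are also given without them. Gene symbols are not in the files, and the reference table matched 0 of the identifiers. The muscle, adipose and connective tissue marker lists could therefore not be looked up, the members could not be sorted by role, and the label of the set rests on the tissue labels alone.

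The members' ratio ran from 190.0 to 8737, with a median of 729.7, and was 1000 or more for 38 of them. Their SM medians ran from 189.0 to 2552543 normalized counts, with a median over members of 4905. The medians of 24 members were 0 in T, AT and CT alike. Taken tissue by tissue, 31 members had a median of 0 in T, 44 in AT and 39 in CT. Of the 76 members with a median above 0 somewhere outside SM, the highest of the 3 was in CT for 39, in T for 24 and in AT for 13. Only the members of rank 14, 19, 29, 30 and 55 passed 100 normalized counts in another tissue.

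Around the end of the list the ratio changed little. The members of rank 98, 99 and 100 had ratios of 197.9, 197.7 and 190.0, and the next 3 genes, which are not members, had 181.9, 172.4 and 170.0. The last member had an SM median of 189.0 and 0 in the other tissues, while that of rank 99 had 11543 in SM and 57.4 in CT. The ratio therefore placed genes of very different level side by side.

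In SM libraries the 100 members took a large part of the counts. Their summed share of the library was 30.9% in the lowest (SM 30), 51.2% in the median and 58.9% in the highest (SM 6) of the 20 SM libraries. For SM 30 the Wilson 95% interval was 30.90% to 30.96%. Such intervals cover counting error only, since PCR copies were not separated, and were narrow beside the spread among cats. A single member, that of rank 19, took 16.7% to 29.9% of every SM library and 43.4% to 56.5% of its member counts. The 10 members with the most counts took 77.1% to 81.4% of them, so a sum over the set describes few genes, and the median over members is given beside it. Counts were not divided by gene length, and this order is one of counts, not of transcripts.

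**Figure D1:**
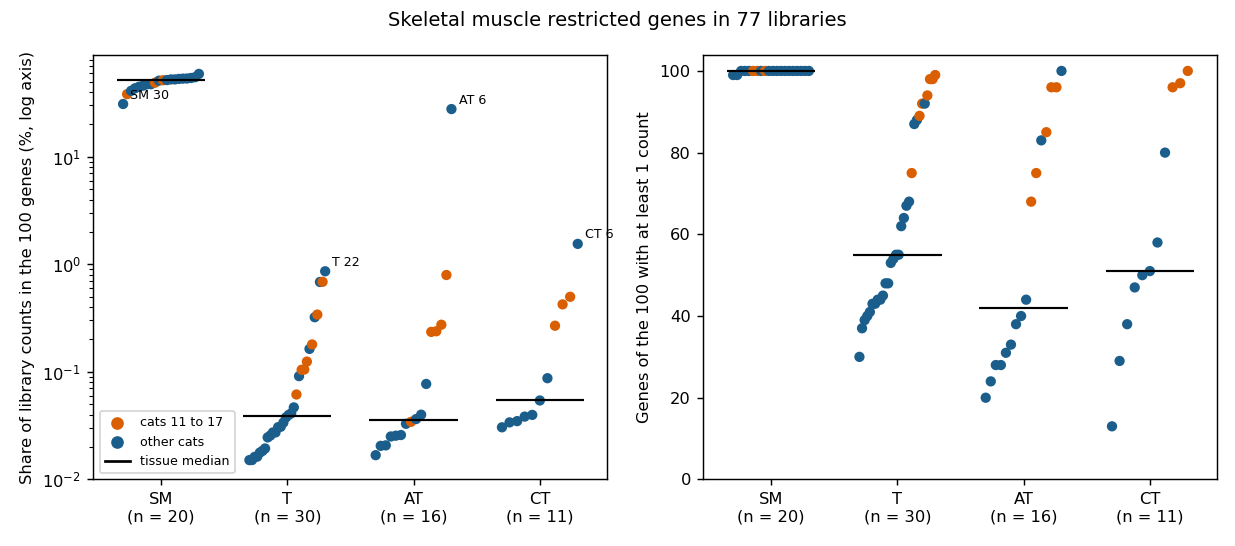
Left, share of each library's counts in the 100 muscle genes (%, log axis), 1 point per library, sorted within SM (n = 20), T (n = 30), AT (n = 16) and CT (n = 11), with bars at the tissue medians and cats 11 to 17 in orange. Right, the number of the 100 genes with at least 1 count. SM libraries lay between 30.9% and 58.9%, AT 6 at 27.8%, CT 6 at 1.55% and T 22 at 0.860%.

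Almost all members were seen in all muscle samples. A count in each of the 20 SM libraries was found for 98 members. The other two were the member of rank 39, with 0 counts in SM 19, and that of rank 100, with 0 in SM 7. For 54 members the lowest SM library lay above the highest of the 57 other libraries. The same held for 1.98% of the 8319 genes with an SM median of at least 50 and for 0.845% of the 19524 genes with a count, and nothing is read from that difference, because the rule used this contrast. AT 6 was the highest library outside SM for 90 members. Without it, 81 members (background 3.1% and 1.32%) had all SM libraries above all others, and the highest remaining library was most often CT 6 (27 members), CT 13 (25) or T 11 (11).

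Single genes showed how the pattern varied. ENSFCAG00000045716, the member of rank 1, had 1255, 8736 and 18978 normalized counts in the lowest, median and highest SM library. Its T libraries ran from 0 over a median of 0 to 26.03 (T 20), with a count in 14 of 30. Its AT and CT medians were also 0, and its highest values there were 3779 in AT 6 and 139.5 in CT 6. AT 6 lay within the range of the SM libraries and all other libraries lay below it. ENSFCAG00000011170, the member of rank 2, ran from 126.4 (SM 8) over 8432 to 37316 (SM 5) in SM. In T its median was 0 and its highest value 1232 in T 5, in AT it reached 5246 in AT 6, and in CT no more than 42.5 (CT 13). SM 8 was thus below T 5 for this gene, and the groups overlapped.

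The next 2 genes were seen at a low level in several NT libraries. In the tests given later both were lower in T than in AT, also without AT 6, and their call against CT was lost without cat 6. ENSFCAG00000002672, of rank 4, had 65667, 160632 and 352529 normalized counts in the lowest, median and highest SM library. In T it had a median of 0.212 and a highest value of 63.5 (T 22), in AT a median of 5.24 and 41886 in AT 6, and in CT a median of 25.5 and 2155 in CT 6. After AT 6 the next AT library, AT 16, stood at 1059. ENSFCAG00000012225, of rank 36, had 25059, 62478 and 129497 in SM, with medians of 11.3 in T, 56.4 in AT and 25.9 in CT. Its highest values were 92.4 in T 11, 18170 in AT 6 and 837.2 in CT 6. For both genes all 20 SM libraries lay above all 57 others.

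The members did not keep fixed proportions to each other in SM. Each library was centred on the median of its members and each member on its mean, on the log2 scale of normalized counts + 1. The SD of a member over SM libraries then had a median of 0.51, was below 0.5 for 49 members and above 1 for 17. The steadiest was the member of rank 24 (SD 0.19) and the least steady that of rank 100 (SD 2.42), which was also the member with the lowest SM median. The SD of rank 100 takes in a count of 0 in SM 7, where up to 31.3 normalized counts can go unseen. At that floor its highest SM library stood at 17.8 times its lowest. The same 0 enters the component described next. Rank 19, with the most counts, had an SD of 0.20.

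A small group of members moved together. The first principal component of these centred values held 38.0% of their variance over the 20 SM libraries. Loadings under -0.2 were found for 9 members (ranks 2, 6, 8, 13, 63, 72, 74, 78 and 91) and loadings over 0.2 for 3 (ranks 39, 84 and 100). Between pairs of the 9 the correlation over SM libraries had a median of 0.69 and a lowest value of 0.31, against a median of -0.02 over all pairs of members. The component was computed on the same values, so these correlations describe the group and test nothing.

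SM 8 stood apart on this component, with a score of 13.4, followed by SM 34 with 6.47, and SM 7 lay at the other end with -7.50. In SM 8 the 9 members stood at a median of 4.55% of their SM medians while the other members stood at 108%. In SM 5, at the other end of that ratio, they stood at 335% against 116%. Rank 78, one of the 9, had 225.1 normalized counts in SM 8, a median of 15128 and 52945 in SM 5. Rank 84 went the other way, with 9.31 in SM 20, a median of 1017 and 5604 in SM 8. Which muscle each SM sample came from is not in the labels. The study lists the site of each tumor, and its part in this spread was not tested.

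**Figure D2:**
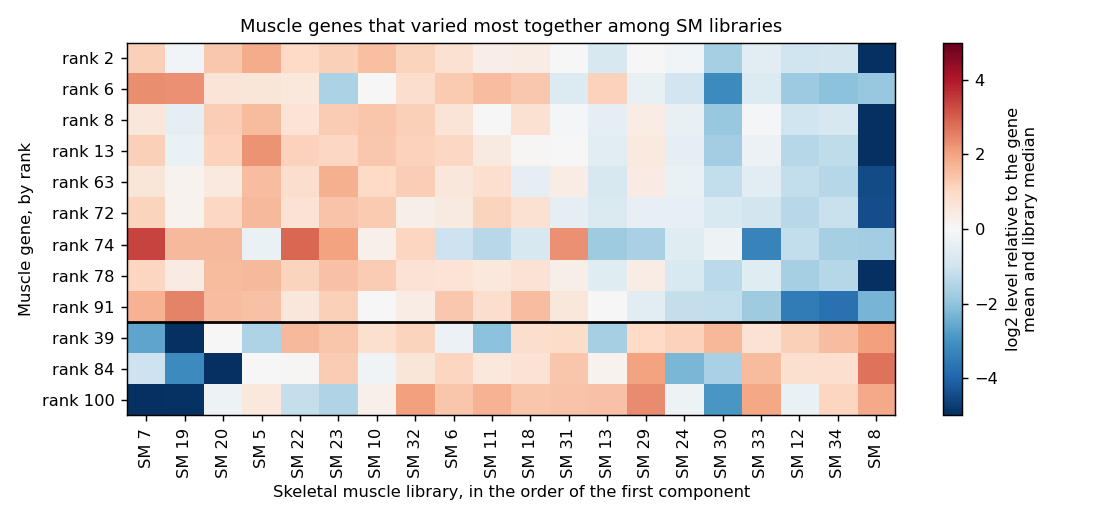
log2 level of 12 muscle genes (rows, by rank) in the 20 SM libraries (columns, in the order of the first component), relative to the gene's mean and the library's median, with colours cut at 5 on either side. The 9 genes above the line fell to a median of 4.55% of their SM medians in SM 8 on the right, while the 3 below it lay lowest in SM 7, SM 19 or SM 20 at the left.

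SM 30 was low for the members as a whole. Their sum stood at 32.4% of the SM median in SM 30 and at 150.3% in SM 6, the extremes of the 20 libraries. A set made by the same rule for AT, the 100 genes most restricted to adipose tissue, summed to 16.1% of its AT median in SM 30, the highest of the SM libraries, which had a median of 5.02%. The set made in the same way for CT summed to 19.8% of its CT median in SM 30, against a median of 8.31% over SM libraries and 29.2% in SM 11. The part of these in the low muscle level of SM 30 was not tested.

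Outside SM the members were rare but not absent. Relative to the SM median of their sum, T libraries held 0.0122% (T 33), 0.0333% and 0.838% (T 22) in the lowest, median and highest library. AT libraries held 0.0134% (AT 27), 0.0261% and 30.1% (AT 6), and the highest AT library apart from AT 6 was AT 16 with 0.585%. CT libraries held 0.0245% (CT 31), 0.0434% and 1.42% (CT 6). As a median over members in place of the sum, the median library stood at 0.0043% in T, 0% in AT and 0.0010% in CT, since in many libraries most members had no count. A sum above 0.1% was found in 7 of 30 T, 5 of 16 AT and 4 of 11 CT libraries. The median sums of the 3 tissues differed by less than the spread among libraries, and single libraries made the range. Scaled as CPM the median sums were 0.0755% in T, 0.0689% in AT and 0.106% in CT.

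The number of members detected followed the library. At least 1 count was seen for 30 to 99 members in T (median 55), 20 to 100 in AT (median 42) and 13 to 100 in CT (median 51). In the T library with the fewest, T 23, a single member of rank 29 took 49.3% of the 1297 member counts. In CT 21, with 863878 counts one of the shallowest, 13 members had a count.

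AT 6 was of another order than the rest. All 100 members had a count in it and 99 had at least 10, and they took 27.8% of its counts (Wilson 95% interval 27.7% to 27.8%). The median over members was 28.2% of the SM median, close to the 30.1% of the sum, so the level did not rest on the few genes with the most counts. The members' order followed muscle, with a Spearman correlation of 0.99 with the SM medians over the 100 members (genes of a library are not independent replicates). Of the 100 members, 85 lay within 2-fold of the 28.2%, and relative to the muscle of the same cat (SM 6) 93 lay within 2-fold of a median of 18.9%.

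The adipose genes in AT 6 were not reduced in step. The 100 genes restricted to AT by the same rule summed to 132% of their AT median in AT 6, within the 45.6% to 169% of all AT libraries. SM libraries held 4.38% to 16.1% of that sum. The set was chosen with AT 6 among its libraries, so the value describes the library and tests nothing. Among the 4398 genes with a median of 0 in all 4 tissues of the cats outside 11 to 17, 3.32% had a count in AT 6, against 2.02% to 44.3% in the AT libraries of those cats.

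The proportions among members in AT 6 were closest to SM of the same cat. The log2 level of each member with at least 10 counts was set against its SM mean and compared with the same deviations in each SM library. Over 99 members AT 6 correlated best with SM 6 (r = 0.59), next with SM 5 (0.47), and the median over the 20 SM libraries was 0.06. The group of 9 members that varied in SM stood at 49.4% of their SM medians in AT 6 against 27.5% for the other members, and in SM 6 at 227% against 149%. These correlations are across genes of single libraries and are given without a test.

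CT 6 and T 22 held the highest member sums of their tissues, while by the median over members CT 13 and CT 17, and T 17 and T 11, lay above them. In CT 6 the members took 1.55% of the counts (Wilson 95% interval 1.53% to 1.56%), their median level was 1.26% of SM, and 80 of them had a count. The group of 9 members had a median of 0.015% and the others 1.28%, while the group was higher in AT 6 and SM 6. Only 3 of the 9 had at least 10 counts in CT 6, so their median lay near the floor. The group was split, with rank 74 at 18.9% of its SM median and rank 6 at 6637 normalized counts against 124880. Over 66 members its deviations were nearest to SM 31 (r = 0.50), and SM 6 was number 5 of 20 (0.23). So CT 6 and AT 6, of the same cat, differed in the SM library nearest to them, over 66 members in CT 6 and 99 in AT 6. T 6 held 0.0140% of the SM sum, below the T median.

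In T 22 the members took 0.860% of the counts (0.855% to 0.866%), their median level was 0.813% of SM, and 92 had a count. Its deviations were nearest to SM of the same cat, SM 22 (r = 0.69 over 77 members), followed by SM 23 (0.51). T 5 was nearest to SM 22 (0.52) with its own SM 5 next (0.40), and T 20 was nearest to SM 23 (0.56) with its own SM 20 number 5 (0.36). In T 11, with a sum of 0.495%, SM 11 was number 12 (r = -0.04). Of the 14 libraries from cats with an SM library in which at least 40 members had 10 counts, the own SM was nearest in 2, AT 6 and T 22, and its place had a median of 6.5 of 20. The group of 9 members stood above the other members in T 22, T 5 and T 20, at 3.35% against 0.787% in T 22, 2.46% against 0.318% in T 5 and 0.917% against 0.293% in T 20. This was not particular to them. The group also stood higher in T 11, at 2.84% against 1.04%, and in T 24, at 0.128% against 0.0267%. In several other T libraries it stood lower, as in T 17, at 0.640% against 1.31%.

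**Figure D3:**
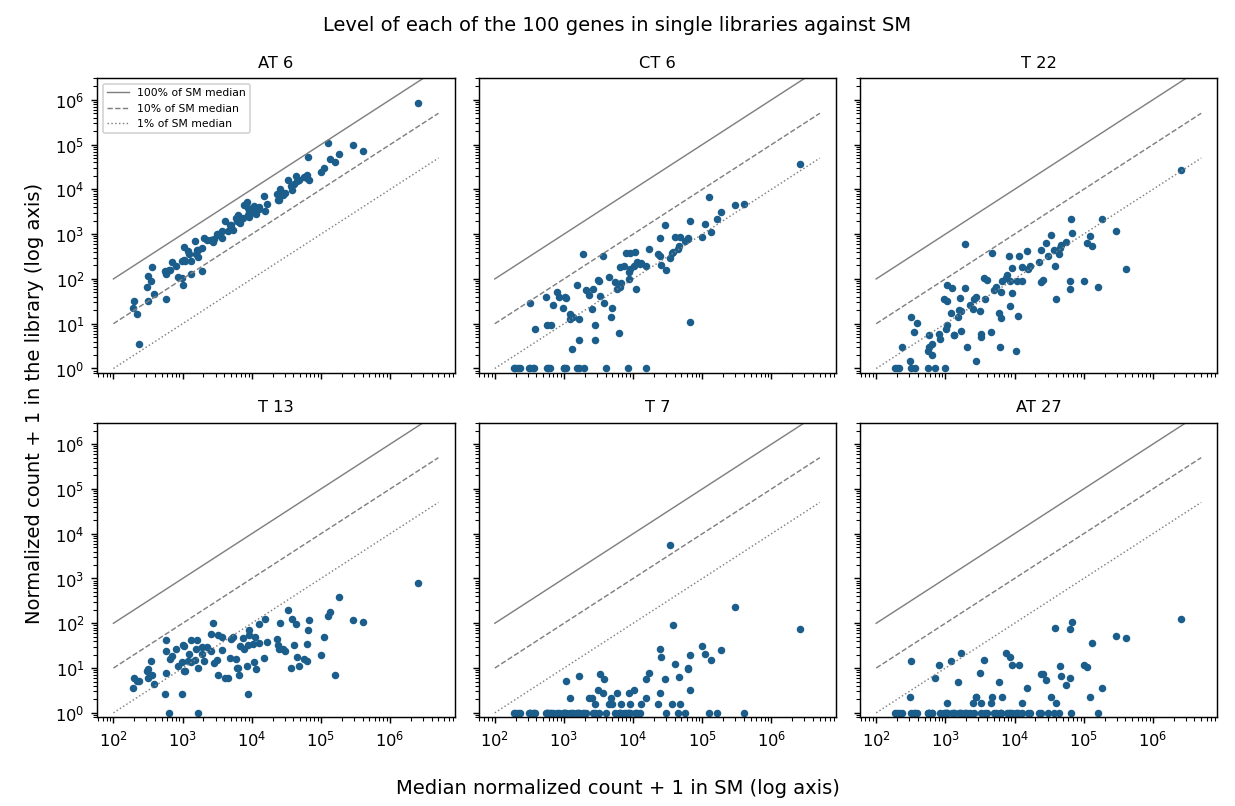
Normalized count + 1 of each of the 100 muscle genes in 6 libraries (y, log axis) against its SM median + 1 (x, log axis), with lines at 100%, 10% and 1% of the SM median. In AT 6 the points followed muscle at 28.2% of SM in the median, in CT 6 and T 22 near 1%, in T 13 they lay on a nearly flat band, and in T 7 1 gene (rank 44) stood alone at 16.7%.

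Libraries of cats 11 to 17 held the members in another form. In T, 75 to 99 members had a count in these 7 libraries, against 30 to 92 in the 23 other T libraries. The single counts were spread over many genes. In T 13 the sum over members was 0.0807% of SM but the median member stood at 0.446%, and in CT 13 the sum was 0.357% and the median member 2.21%. Of the 4398 genes at a median of 0 in all tissues of the other cats, 47.3% to 90.9% were counted at least once in these T libraries and 5.50% to 22.6% in the other T libraries. AT 5, of another cat, had counts for 44.3% of these genes and for 83 members, against 35.9% and 68 in AT 15. The genes were chosen for their silence in the other cats. The share of silent genes counted did not always go with the number of members seen. T 15 and T 22 each had 92 members with a count, at 72.9% and 12.1% of the silent genes. The part of this share in the members' counts was not tested. AT 16 was an exception, with a Spearman correlation of 0.87 with SM over members, above the 0.430 to 0.615 of T 11 to T 17, and a member sum of 0.585% beside counts for 62.3% of the silent genes.

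Some members stood far above the rest of the set in a library. The rest was not always absent, with counts for 92 members in T 22 and 88 in T 5. A member was listed where it had at least 100 counts and at least 5% of its SM median. It also had to pass 10 times both the library's sum and its median percent. This held for 16 pairs of a member and a library, over 8 members and 10 libraries. Rank 44 had 9754 counts in T 7, 16.7% of its SM median, and made 89.8% of the member counts of that library, while the median member stood at 0. It also made 45.8% of the member counts of T 10. SM 7, of the same cat as T 7, was the highest SM library for rank 44, at 169566 normalized counts. Relative to SM of the same cat, the highest member stood at 3.32% in T 7, 4.47% in T 20 and 5.06% in T 22. In T 5 it stood at 13.8% and in CT 6 at 18.8%. In T 11 the highest value was 629%, for rank 79, which is not among the listed members. Rank 79 had 1 count in SM 11, or 6.68 normalized counts, against 41.99 normalized counts in T 11 and an SM median of 318.9. The 629% thus rests on 1 count near the floor of SM 11 and shows no excess over muscle.

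Rank 74 was the most frequent of these. It stood at 50.7% of its SM median in T 11, at 31.04% in T 22, at 18.9% in CT 6, at 17.8% in T 5, at 16.5% in T 24 and at 10.1% in T 20. Among SM libraries it ran from 363.2 (SM 33) over a median of 1914 to 27550 (SM 7) normalized counts, so T 11, at 970.0, lay within the SM range. The member of rank 64 stood at 24.6% in T 17, 22.8% in T 11 and 5.36% in T 16. Rank 84 stood at 21.97% in T 12 and that of rank 2 at 14.6% in T 5. T 5 held 6 such members (ranks 2, 40, 44, 71, 72 and 74), the most of any library. The member of rank 20 made 63.2% of the member counts of T 15. What these genes encode could not be read from the files.

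Tumor and adipose tissue were then compared, a contrast whose direction the rule did not set. The largest of the T, AT and CT medians entered the rule, so genes with a high median in any of them were left out. The shares of members called, here and between the other tissues, are therefore limited by the choice and not fully comparable with all genes. The fit used edgeR's quasi-likelihood test over all genes that passed a filter on low counts, and a gene was called at an adjusted p-value (Benjamini-Hochberg) under 0.05 and a log2(FC) beyond 1. Of the 100 members 62 passed the filter, and 50 of them were lower in T and 0 higher. Over all 14016 genes tested, 10.2% were lower and 9.08% higher in T. The median log2(FC) was -3.13 over the members tested and 0.06 over all genes.

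That result rested on 1 library. Without AT 6, 64 members passed the filter and 4 were lower in T (background 8.49%), with a median log2(FC) of -0.07. The 4 were ENSFCAG00000012225 (log2(FC) = -2.34 ± 0.50 SE, adjusted p = 0.00022 with edgeR), ENSFCAG00000002672 (-3.42 ± 0.95, adjusted p = 0.0037) and the members of rank 70 (-1.79 ± 0.63) and 16 (-1.10 ± 0.43). With the cat as a block and AT 6 kept, 4 members were lower (background 11.2%), of ranks 4, 36, 70 and 99, and with DESeq2 6 were lower (background 9.76%). Without cats 11 to 17 but with AT 6, 32 of 34 were lower (background 11.4%). A share near or under the background is not a result about the members. With all libraries the same 2 named genes had log2(FC) of -6.27 ± 0.77 and -8.62 ± 1.21. In a wider set of 230 genes, with a ratio of 10 or more and not members, 42 of 183 tested were lower and 5 higher in T with AT 6, and 18 of 184 lower and 16 higher without it.

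For tumor against connective tissue 72 members passed the filter and 8 were lower in T and 0 higher, by edgeR's test, against a background of 6.52% lower and 9.06% higher over 14974 genes. The 8 were the members of rank 4, 7, 12, 14, 16, 30, 34 and 36. ENSFCAG00000002672 had a log2(FC) of -4.84 ± 0.94 SE (adjusted p = 0.00015) and ENSFCAG00000012225 of -2.54 ± 0.60 (adjusted p = 0.0013). Without the libraries of cat 6, 76 members passed and 0 were lower (background 6.82%), with 3 at an unadjusted p under 0.05 in either direction, and 1 was higher (background 6.54%), that of rank 66 (log2(FC) = 1.16 ± 0.41). The 2 named genes then had log2(FC) of -2.44 ± 1.04 and -1.17 ± 0.61. With the cat as a block and all libraries kept, 2 were lower (background 5.64%), of ranks 24 and 99, and 0 of the 8 were called. The calls for T against CT were thus lost without this cat.

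**Figure D4:**
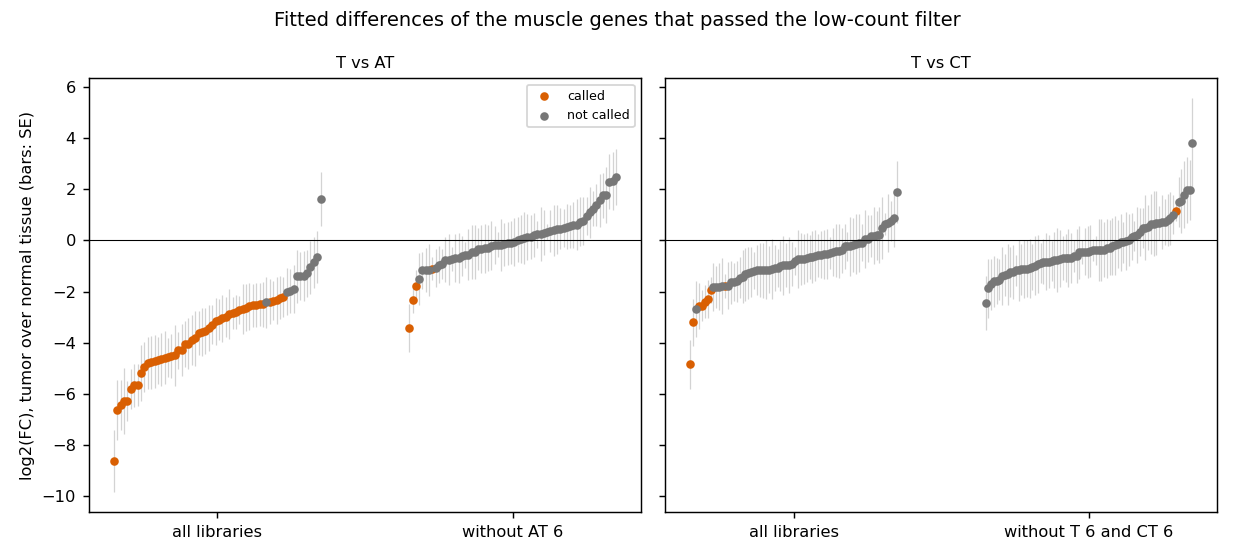
log2(FC) of tumor over AT (left) and over CT (right) for the muscle genes that passed the low-count filter, 1 point per gene in rising order with its SE, with all libraries and without those of cat 6 named on the axis, and called genes in orange. Against AT, 50 of 62 genes were lower with AT 6 and 4 of 64 without it, and against CT 8 of 72 and 0 of 76.

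Between the NT, AT and CT differed in 1 of 42 members that passed, by edgeR's test. The member of rank 66 was higher in AT (log2(FC) = 3.16 ± 0.99 SE, adjusted p = 0.034), against a background of 4.32% higher and 2.87% lower over 12491 genes, and 23 members had an unadjusted p under 0.05. Without AT 6 the median log2(FC) of the members tested went from 3.11 to -1.20. Of the 32 members that then passed, 0 were higher (background 3.81%) and 2 were lower in AT (background 2.9%), of rank 14 (-3.74 ± 0.97) and 43 (-3.21 ± 0.84). With the cat as a block 0 members were called (background 1.88% higher), and 0 had an unadjusted p under 0.05. Without the libraries of cat 6, 0 were higher (background 3.57%) and 1 lower (background 2.6%), that of rank 43. DESeq2 with all libraries also gave 0 higher (background 4.05%) and 1 lower (background 4.07%), and without the filter on low counts edgeR gave 2 higher (background 2.57%).

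Muscle had been sampled from 20 of the 30 cats, and the T libraries of these were compared with those of the other 10 to ask whether the members were found in tumor where muscle was collected beside it. By edgeR's test 0 of 63 members were called, against 1 of 14167 genes (0.0% higher and 0.00706% lower), with 14 members at an unadjusted p under 0.05 (10 with DESeq2). Their median log2(FC) was 0.48, higher in cats with an SM library. The member sum had a median of 0.0374% of SM in the 20 T libraries and 0.0281% in the 10, and their ranges, 0.0122% to 0.838% and 0.0152% to 0.235%, overlapped. The cats without an SM library include 4 of cats 11 to 17. Without those cats the median log2(FC) was 2.04, with 0 called, and the sums ran from 0.0122% to 0.838% in 17 libraries and from 0.0152% to 0.0315% in 6. Without T 5, T 20 and T 22, and with cats 11 to 17 kept, the median log2(FC) was 0.11, with 0 called. These libraries, all of cats with an SM library, were left out because their member sums had been seen to be high. T 11, also of such a cat, was kept with a sum of 0.495%.

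The AT libraries gave the same count. By edgeR's test 0 of 49 members were called between the 10 AT libraries of cats with an SM library and the 6 of cats without one, where 0 of 12330 genes (0.0%) were called, and 24 members had an unadjusted p under 0.05 (0 with DESeq2). The median log2(FC) was 3.71 with AT 6 and -0.59 without it, where 4 of 29 members had an unadjusted p under 0.05. The direction of this difference was that of AT 6.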

How the data were processed

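RNA from LCM-isolated FFPE tissue was sequenced with the SMARTer Stranded Total RNA-Seq Pico kit. Whole-number counts for each Ensembl identifier were deposited by the authors, without normalization. The study's methods name Trimmomatic and Kallisto with the annotation of Felis_catus_9.0, while the submitters' processing notes list STAR and featureCounts. Which made the files could not be told, nor how reads shared by near-identical copies were counted. Tissue and cat were taken from the titles. Members, sets and tests were chosen with earlier results of these data known. The rule for named genes needed symbols, so 4 identifiers are printed, 2 of the highest ranks and 2 lower in T, and other members go by rank.

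Size factors and descriptions were computed in Python 3.11.15 (numpy 2.4.6, pandas 2.3.3, scipy 1.17.1, matplotlib 3.10.9). Tests used edgeR 4.0.16 (R 4.3.3, limma 3.58.1) with TMM normalization, filterByExpr by group, quasi-likelihood fits and Benjamini-Hochberg adjustment over all genes tested, in a fit per comparison. On simulated counts with 200 genes changed by a log2(FC) of 2, the fit recovered 75.5% for T vs AT over 14016 genes, 72.5% for T vs CT over 14974 and 75.0% for AT vs CT over 12491. It recovered 75.5% between T libraries with and without SM over 14167 genes, and 53.5% between such AT libraries over 12330. The changed genes were drawn at random from all that passed the filter, with libraries drawn independently and none set apart like AT 6. These shares therefore do not carry over to the members. Alternatives were DESeq2 1.42.0, RLE factors, no filter on low counts, other scalings, floors and pseudocounts, and libraries left out. Leaving out AT 6, cat 6 or T 5, T 20 and T 22 was chosen after seeing the data.

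Libraries of a cat come from 1 animal and are paired. The study's methods for the RNA do not say whether the cat was a term. The main fits here had none, and a fit with the cat as a block was an alternative. Deviations from the tissue means correlated with a median of 0.176 for T and AT (16 pairs), 0.222 for T and CT (11) and 0.412 for AT and CT (5), against 0.0275, 0.0504 and 0.0809 between different cats. In the comparisons by presence of an SM library each cat gave 1 library, so p-values there measure the spread between animals. The tissue fits without the block took libraries of the same cat as independent, so their p-values ignore the pairing. The protein data of the study were not used here.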

Additional observations from a re-analysis of the deposited data

Results flagged for a closer look

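Libraries far from their group were sought in 12 tests, in 4 groups of 6 to 10 libraries. The measures were the share of counts in the muscle genes, their median level relative to SM and the number with a count. Of the tests, 6 gave a library. For independent normal values about 1 group in 20 would do so, or 0.6 tests. The shares are skewed, the measures use the same libraries, and the genes were chosen on them, so this gives no measure of chance. Among the 10 AT libraries of cats with an SM library, AT 6 held 27.8% of its counts in the members against 0.274% in the next, and a median level of 28.2% against 0.604%. Among the 8 CT libraries of such cats CT 6 held 1.55% against 0.498%. Among the 6 AT libraries of cats without an SM library AT 16 held 0.794% against 0.238%. Among the 10 T libraries of those cats T 17 held 0.340% against 0.124%, with a median level of 1.23% against 0.497%. AT 6 and CT 6 are of the same cat, and AT 16 and T 17 are of cats 11 to 17, and 62.3% and 84.3% of the silent genes also had counts in them. The causes were not tested.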

How the results depend on the processing

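Of 106 counts and levels under other settings, 25 were labelled as moved and 81 were not. Counts were so labelled at a change of over 1.5 times, or to or from 0. For tissue medians the limit was the SD over libraries, in AT 7.51% with AT 6 included, which the AT median could hardly pass. For AT 6 and CT 6 it was counting error alone, which small changes passed. The tally mixes these limits and does not measure stability. The spread among libraries is wide, and the T, AT and CT median sums (0.0333%, 0.0261% and 0.0434%) also went to 0.0717%, 0.0702% and 0.0761% without the 10 members with the most counts. The median log2(FC) of members turned sign without AT 6 and with DESeq2 for AT against CT (3.11 to -1.20 and -0.49) and for AT by presence of an SM library (3.71 to -0.59 and -0.37), and for AT against CT also without cat 6 (-0.09). The level of AT 6, 30.1% of the SM sum, was 32.9% with TMM factors, 54.2% with CPM, 28.2% as a median over members, 35.2% without the 10 members with the most counts, 30.0% without cats 11 to 17 and 30.2% without AT 5. That of CT 6, 1.42%, was 1.45%, 3.02%, 1.26% and 1.52% under the first 4 of these. In CPM the members themselves take much of each SM total, so other libraries rise beside it. Members lower in T than in AT, 50, were 6 with DESeq2, 32 without cats 11 to 17, 4 with the replicate block (cat) and 4 without AT 6. For T against CT, there were 8 lower and 0 higher, 2 other members lower with the block, and 0 lower and 1 higher without cat 6. For AT against CT, 1 higher and 0 lower became 0 higher with DESeq2, with the block, without AT 6 and without cat 6, and 2 higher without a filter on low counts, while 1 was lower with DESeq2, 2 without AT 6 and 1 without cat 6. The block changed no other call. In the comparisons by presence of an SM library no member was called in any setting run, and a block could not be fitted, because each cat falls in 1 group. Of the 100 members, 99 were kept with TMM, with CPM, without AT 5 and without AT 6, 98 with a floor of 200, 91 without cats 11 to 17, 82 with a pseudocount of 10 and 81 with means in place of medians. AT and CT were the shallowest groups, and a member at 0 there can lie below detection.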
